A study of Homo sapiens with 24 samples.

Results

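The genes described here build ribosomes. They are 42 genes of ribosome biogenesis and RNA polymerase I, picked by gene symbol and followed through all 8 groups of a drug-resistance experiment in cancer cell lines. Of the 42 symbols, 41 matched a row among the 39786 genes of the count table, and DKC1 is not analysed here. All 41 passed the filter on low counts in both cell lines. They fall into 5 classes: 7 protein components of small nucleolar ribonucleoproteins (snoRNPs), 14 proteins of the small-subunit processome and small-subunit assembly, 9 large-subunit assembly factors, 6 subunits and factors of RNA polymerase I, and 5 nucleolar proteins with several roles.

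Ribosomes are made in the nucleolus, where RNA polymerase I copies the ribosomal DNA into a long precursor RNA. Box C/D snoRNPs guide ribose methylation of this precursor and box H/ACA snoRNPs guide pseudouridylation, the processome folds and cuts its small-subunit part, and a separate set of factors assembles the large subunit. Growth factor receptors feed into this pathway through ERK and mTORC1 signalling, and proliferating cancer cells keep it very active, which is why its transcripts are often read as a sign of growth.

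Messenger RNA was sequenced from 5637, a line from a bladder carcinoma, and OVCAR8, a line from an ovarian carcinoma, each in its parental form and in a form resistant to neratinib (NR). Neratinib is an irreversible inhibitor of the ERBB family of receptor tyrosine kinases. The 8 groups are 5637 parental control, 5637 parental neratinib, 5637 NR control and 5637 NR neratinib, and the same 4 of OVCAR8, with 3 libraries in each. Treatment lasted 24 h. The dose of neratinib was 600 nM for 5637 cells and 1 µM for OVCAR8 cells, and control cells received none. NR cells had been kept off the drug for 1 week before plating, so the NR control groups describe resistant cells away from the drug. Whether each NR derivative is 1 clone or a pool is not stated in the sources used here. The doses differ, so in drug comparisons between the lines, line and dose cannot be told apart. The 3 libraries of a group come from dishes plated in triplicate, and every p-value here measures the spread between such dishes, which may be technical.

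Library totals ran from 23849832 to 48486296 counts. One library stood apart: in OVCAR8 parental control replicate 2, long genes (over 8 kb) took 14.1% of counts, while the remaining OVCAR8 libraries gave them 20.4% to 21.2%. Short genes (under 1 kb) took 5.82% there and 4.06% to 4.74% elsewhere in OVCAR8. Among the 3 OVCAR8 parental controls this library was the highest for 20 of the 41 genes and the lowest for 17. Its ratio to the mean of the other pair had a median of 0.791 for the 10 longest of the genes and 1.21 for the 10 shortest. OVCAR8 results are therefore given with and without it. The biological coefficient of variation was 8.03% in 5637, 13% in OVCAR8 and 4.37% in OVCAR8 without that library. Of the lineage markers, GATA3 (71.4 CPM, counts scaled to the library total), TP63 (234 CPM) and KRT5 (3948 CPM) were present in 5637 parental controls, while the uroplakin UPK3A was near 0 (0.105 CPM). PAX8 (145 CPM) and MSLN (313 CPM) were present in OVCAR8 parental controls, while MUC16 (0.024 CPM) and SOX17 (0.016 CPM) were near 0. PAX8 and MSLN made up nearly all of the mean sum of the listed Müllerian markers there (461.9 CPM). The other listed markers, WT1, EMX2, MECOM and ESR1, were thus low as well. The 8 listed Müllerian markers summed to 423.7 to 534.7 CPM in OVCAR8 parental controls and 274.9 to 407.1 CPM in 5637 parental controls. As a list they set the lines little apart.

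Many of the promoters hold the same short sequence, an E-box. RefSeq promoter windows (GRCh38.p14, 250 bases before to 50 after a gene's start) matched 34 of the 41 genes. The 6-letter E-box CACGTG is a palindrome, so both strands read alike, and is known as a binding site of basic helix-loop-helix leucine zipper factors such as USF1. It lay in the windows of 17 of the 34 genes (50%), against 8.77% of 27305 genes, 10.9% of 15842 protein-coding genes and 12.1% of 10833 protein-coding genes tested here. By class it was found in 3 of 5 snoRNP genes, 8 of 13 processome genes, 3 of 6 large-subunit genes, 3 of 5 nucleolar genes and 0 of 5 polymerase I genes. The E-box was absent from the windows of NOP56, NCL, NPM1, BRIX1 and UTP15, which the results below also turn on. The following 30-base windows show genes that hold it. They are written 5′ to 3′ on the gene's strand with the E-box in capitals.
LYAR, chr4:4290068-4290097, minus strand: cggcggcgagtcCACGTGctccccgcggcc
MYBBP1A, chr17:4555340-4555369, minus strand: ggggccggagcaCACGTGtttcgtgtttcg
RRP9, chr3:51941892-51941921, minus strand: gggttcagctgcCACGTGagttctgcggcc
PNO1, chr2:68157885-68157914, plus strand: ggtgcagctgcgCACGTGtttcagccggca
GNL3, chr3:52686026-52686055, plus strand: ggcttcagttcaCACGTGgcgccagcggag
WDR43, chr2:28894658-28894687, plus strand: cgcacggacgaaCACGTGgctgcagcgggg
FBL, chr19:39846356-39846385, minus strand: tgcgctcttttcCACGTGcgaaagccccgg
NOP10, chr15:34343130-34343159, minus strand: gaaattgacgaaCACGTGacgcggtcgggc
In LYAR the E-box starts 64 bases before the RefSeq start, in NOP10 11 bases before and in RRP9 5 bases before. It starts at the 4th base of WDR43, the 7th of GNL3 and FBL, the 10th of PNO1 and the 28th of MYBBP1A. NOP10 holds another copy that starts 170 bases before its start. LYAR and GNL3 each have another RefSeq window, with a different start, that lacks the E-box. Of the 18 E-box matches in these genes, 16 (88.9%) lay within 50 bases of the start, against 1042 of 2821 matches (36.9%) over all promoters.

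**Figure D1:**
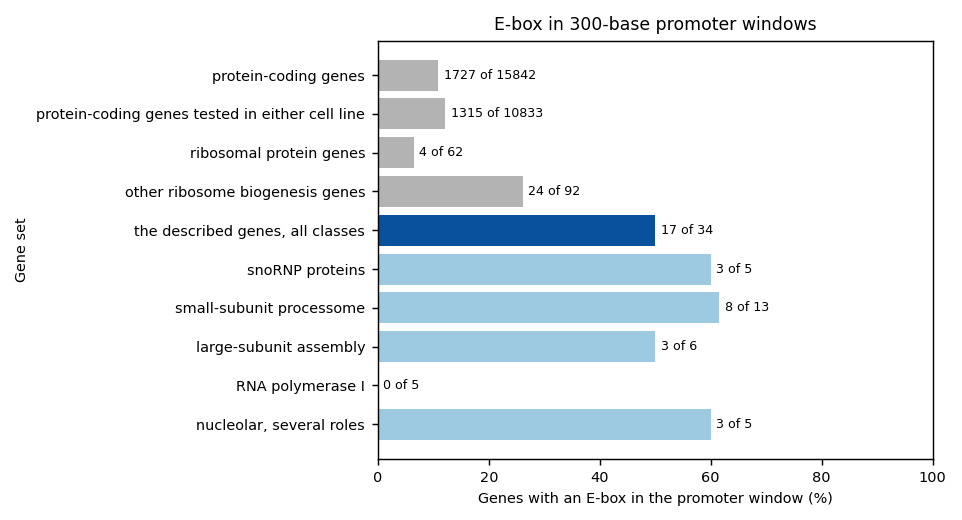
Share of genes (%, horizontal axis) with the E-box CACGTG in the 300-base RefSeq promoter window, by gene set (vertical axis), with counts at the bars. The described genes stand at 17 of 34, against 1315 of 10833 protein-coding genes tested here and 4 of 62 ribosomal protein genes, and the RNA polymerase I class has 0 of 5.

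Another motif was found in polymerase I genes, though not only there. The letters CCGGAAG, read on either strand and known as a core of ETS factor sites, were found in 3 of 5 polymerase I genes, 3 of 5 snoRNP genes, 3 of 13 processome genes, 2 of 6 large-subunit genes and 1 of 5 nucleolar genes. That is 12 of the 34 genes (35.3%), against 20.1% of the protein-coding genes tested, 48.9% of other ribosome biogenesis genes and 35.5% of ribosomal protein genes. POLR1B and RRN3, shown for contrast with the windows above, hold it in reverse, in capitals.
POLR1B, chr2:112542411-112542440, plus strand: ctgcggccactaCTTCCGGcgtgtaccgag
RRN3, chr16:15094292-15094321, minus strand: tggcacgcgcaaCTTCCGGgacagaggctg
The GC box GGGCGG, read on either strand, was as common in these genes (26 of 34, 76.5%) as in the protein-coding genes tested (75%). Matches of different motifs may share bases at their ends. A match is a description of letters and not a measured binding site.

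Levels per kilobase of the deposited gene length differed widely between members, and the top of the order was alike in all groups. The order between genes depends on that length, which is not a measured transcript length. NPM1, nucleophosmin, a histone and ribosome chaperone of the granular nucleolus, ranked first in all 8 groups, at 437 ± 20.5 CPM per kb (SD, n = 3) in 5637 parental controls and 539 ± 114 in OVCAR8 parental controls. NOP10, the smallest box H/ACA protein, NCL, the nucleolar RNA-binding protein nucleolin, and FBL, fibrillarin, the methyltransferase of box C/D snoRNPs, filled ranks 2 to 4 in every group. In 5637 parental controls their levels were 200.1 ± 4.93, 183 ± 7.93 and 157 ± 3.7 CPM per kb, and neighbours in this order lay apart by more than their SDs. In OVCAR8 parental controls they were 316 ± 113, 199 ± 4.63 and 126 ± 43.1 CPM per kb, and here the SDs of NPM1 and NOP10 overlap those of their neighbours. BOP1, a member of the PeBoW complex of large-subunit maturation, ranked last in all 8 groups. It was at 1.85 ± 0.221 CPM per kb in 5637 and 2.84 ± 0.284 in OVCAR8 parental controls. Its symbol has 2 rows in the count table and only the row on a chromosome was used, so this rank is uncertain. The count table holds 35 entries named as NPM1 pseudogenes, with 13.4 CPM in sum against 1630 for NPM1 itself.

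Neratinib was followed by a fall of nearly the whole set in parental 5637 cells. Of the 41 genes, 38 were called lower (edgeR adjusted p under 0.05) and none higher, against 23.5% of 18307 genes called lower and 23.9% called higher. The median log2 fold change of the 41 was -0.69, against 0.02 over all genes tested, and all 41 estimates were below 0. In 37 of the 41 the treated libraries all lay below the controls, as they did for 22.6% of all genes. POLR1E, RRN3 and UBTF did not pass, and their estimates below 0 rest on the TMM scaling. Without it their means rose with drug, from 22.6 to 23.1, 7.81 to 8.18 and 29.7 to 30.01 CPM per kb. BOP1, LYAR and MYBBP1A fell at least 2-fold. Read counts are shares of a library, so fewer cells of a type and less RNA per cell cannot be told apart. With library size alone in place of TMM factors the median of all genes moved to 0.13 and calls went from 50.4% to 64.2% higher, while 37 of the 41 genes still fell, with a median of -0.58.

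Most of the genes fell in parental OVCAR8 too. The tests called 30 of 41 lower and 0 higher, against 16.3% and 16.2% of 18072 genes, with a median of -0.38 against 0.01 for all genes. Treated libraries lay wholly below the controls in 26 of the 41, against 15.7% of all genes. Of the 30 calls, 21 held with each library left out in turn. Those of MYBBP1A, NHP2, NOP14, NOP56, NPM1, PES1, POLR1C, RRP12 and WDR43 did not. Without parental control replicate 2 the same comparison called 40 genes lower and 1 higher, against 24.9% and 24.3% of 18537 genes, with a median of -0.33. The 1 that then rose was UBTF. In 29 genes the fall was called in both parental lines, and in 38 when that library was left out. The share of all genes called lower in both lines was not computed, so these shared counts have no background. With library size alone, the median of all genes moved to 0.11, calls went from 49.8% to 62.6% higher, and 24 of the genes were lower and 1 higher.

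Proliferation markers moved with these genes. Of 10 such markers, 8 fell with neratinib in parental 5637 (median log2 fold change -0.87) and 9 in parental OVCAR8 (-0.64, and 10 without replicate 2). Their summed level ran from 2940.0 to 3054 CPM in 5637 parental controls and from 1899 to 1930.0 CPM with drug, and no marker of the list was at 0. In OVCAR8 it ran from 2562 to 3123 CPM in controls and from 2107 to 2168 CPM with drug. Their part in the changes of the ribosome genes was not tested. Of markers of other cells, PTPRC and CD3E were at or near 0 in all groups, and the summed level, nearly all of it COL1A1, went from 134.4 to 140.3 CPM up to 241.3 to 257.1 CPM with drug in 5637 and from 1145 to 1262 CPM down to 741 to 743.5 CPM in OVCAR8. The part of COL1A1 was not tested either.

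**Figure D2:**
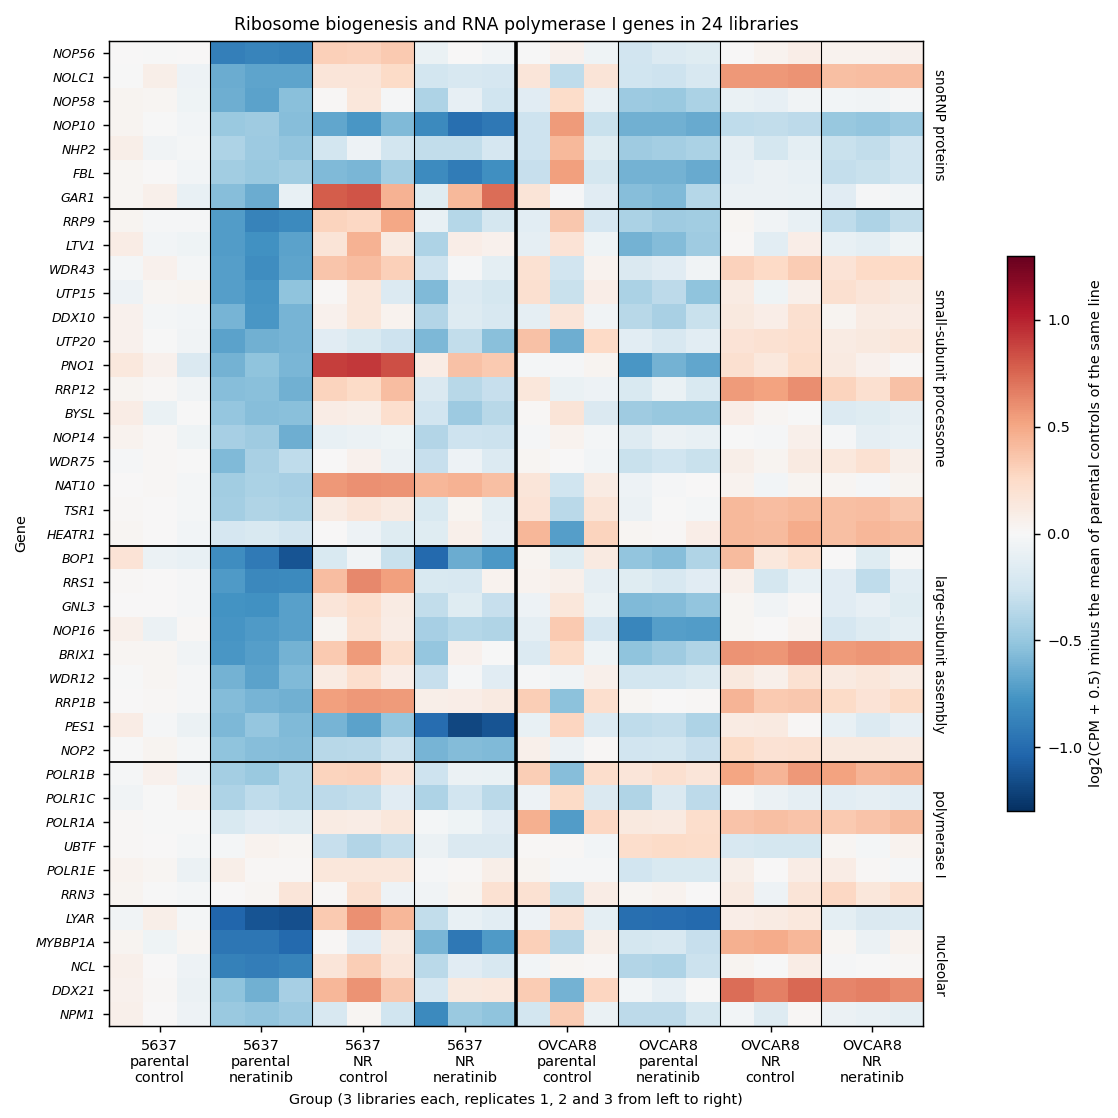
Each cell gives log2(CPM + 0.5) in 1 library minus the mean of the 3 parental controls of the same line, with 41 genes in rows by class and 24 libraries in columns by group. Parental neratinib columns of 5637 lie below 0 in most rows, with POLR1E, RRN3 and UBTF near 0, and the column of OVCAR8 parental control replicate 2 differs from both of its neighbours.

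Among snoRNP proteins all 7 fell with drug in parental 5637 (median -0.61) and all 7 in parental OVCAR8 (-0.59, and -0.41 with all 7 lower without replicate 2). NOP56, a core box C/D scaffold protein (ENSG00000101361.10, chr20:2632791-2639039, hg19), showed it most in 5637. It was measured at 274, 271 and 273 CPM in the parental controls and at 147, 150.2 and 148 CPM with neratinib. The groups lie far apart and each is tight (log2 fold change -0.98 ± 0.05 (SE), edgeR adjusted p = 1.87e-10). In OVCAR8 the same gene stood at 387, 404 and 373 CPM and, with drug, at 326, 344 and 347 CPM. Again all treated libraries were lower, but the change was smaller (log2 fold change -0.30 ± 0.08 (SE), edgeR adjusted p = 0.0107, and -0.22 without replicate 2).

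NOLC1, a chaperone that brings snoRNPs to the nucleolus, was at 198, 210.5 and 189.6 CPM in 5637 parental controls and at 127, 124 and 124 CPM with drug, with no overlap (log2 fold change -0.78 ± 0.05 (SE), edgeR adjusted p = 1.64e-08). In OVCAR8 it was at 331, 235 and 332 CPM in controls and 247, 245 and 255 CPM with drug. Control replicate 2 is the lowest control there and lies below the treated libraries. The change was -0.35 ± 0.09 (SE), edgeR adjusted p = 0.00883 with it and -0.46 without it. NOP10 (ENSG00000182117.4, chr15:34633917-34635378) and FBL show the reverse: for both, replicate 2 was the highest control. NOP10 was at 139, 246 and 137 CPM in OVCAR8 controls and 108, 108 and 106 CPM with drug, and FBL at 215, 382 and 226 and 172, 173 and 168 CPM. Treated libraries of both genes were below every control, and the fold changes shrank without replicate 2, from -0.82 to -0.41 for NOP10 and from -0.80 to -0.42 for FBL.

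GAR1, a box H/ACA protein, was the only gene of the 38 whose fall in parental 5637 was not called with each library left out in turn. Its levels were 18.5, 19 and 16.9 CPM in 5637 parental controls and 12.2, 11.4 and 16.9 CPM with neratinib. One treated library reaches the controls (log2 fold change -0.53 ± 0.18 (SE), edgeR adjusted p = 0.0249). The call was absent in 4 of 6 fits that each left out 1 library. In parental OVCAR8, where GAR1 was at 33.5, 29.5 and 26.9 CPM in controls and 20.2, 19.9 and 23 CPM with drug, the groups did not overlap (log2 fold change -0.61 ± 0.09 (SE), edgeR adjusted p = 0.000503, and -0.57 without replicate 2). NOP58, partner of NOP56, and NHP2, a further H/ACA protein, had log2 fold changes of -0.74 and -0.57 in 5637 and -0.58 and -0.59 in OVCAR8. Replicate 2 was the highest OVCAR8 control of both, with controls at 123, 161 and 128 CPM for NOP58 and 90.4, 145 and 97.7 CPM for NHP2. With drug these genes were at 97.9, 97.1 and 102 CPM and at 79, 79.9 and 81.5 CPM. The OVCAR8 call of NHP2 was lost when some single library was left out.

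The processome class fell as a whole in parental 5637, with 14 of 14 called and a median of -0.70. In parental OVCAR8 10 of 14 were called (median -0.34), and all 14 without replicate 2 (median -0.33). RRP9, a protein specific to the U3 snoRNP (ENSG00000114767.6, chr3:51967446-51975957), was at 37.6, 36.3 and 36.4 CPM in 5637 parental controls and at 22.1, 19.9 and 20.5 CPM with drug (log2 fold change -0.93 ± 0.09 (SE), edgeR adjusted p = 6.16e-07). LTV1, an export factor of the small subunit, was at 49.6, 45.2 and 44.7 CPM and, with drug, at 27.9, 26.7 and 28.5 CPM (log2 fold change -0.85 ± 0.11 (SE), edgeR adjusted p = 1.14e-05). Neither gene has a treated library within the range of its controls. HEATR1, a processome protein also needed for transcription of ribosomal DNA, changed least in the class. Its levels were 102, 100.1 and 97.6 CPM and 85.5, 87.1 and 84.2 CPM, which do not overlap (log2 fold change -0.33 ± 0.06 (SE), edgeR adjusted p = 0.00041).

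PNO1, which binds the maturing end of the small-subunit RNA (ENSG00000115946.3, chr2:68384976-68403370), fell in both lines. It was at 22.8, 21.5 and 18.1 CPM in 5637 parental controls and 13.3, 14.2 and 13.5 CPM with drug (log2 fold change -0.71 ± 0.09 (SE), edgeR adjusted p = 1.21e-05). In OVCAR8 it was at 23.1, 23.3 and 24.1 CPM in controls and 13.7, 15.2 and 14.5 CPM with drug (log2 fold change -0.80 ± 0.08 (SE), edgeR adjusted p = 2.14e-05, and -0.75 without replicate 2). Controls and treated libraries were separate in both lines. The other processome genes, which comprise WD-repeat and UTP proteins (UTP15, UTP20, WDR43, WDR75), NOP14, RRP12, the helicase DDX10, the acetyltransferase NAT10 and the small-subunit factors TSR1 and BYSL, ranged from -0.85 (WDR43) to -0.53 (TSR1) in 5637. HEATR1, NAT10, TSR1 and UTP20 did not pass in OVCAR8, at -0.12, -0.13, -0.14 and -0.31. In HEATR1, whose OVCAR8 controls were 139, 62.8 and 126 CPM and treated libraries 105, 105 and 109.7 CPM, replicate 2 alone lies below the treated range. Without it the gene was called lower (-0.37 ± 0.04 (SE), edgeR adjusted p = 4.44e-07).

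All 9 large-subunit factors fell in parental 5637 (median -0.81), and 7 of 9 in parental OVCAR8 (median -0.47, with 9 of 9 and -0.35 without replicate 2). The row used for BOP1 had low counts in every library. It was at 7.72, 6.36 and 6.26 CPM in 5637 parental controls and 3.65, 3.34 and 2.83 CPM with drug, without overlap (log2 fold change -1.16 ± 0.14 (SE), edgeR adjusted p = 5.06e-06). In OVCAR8 its levels were 10.7, 9.28 and 11.3 CPM and, with drug, 7.12, 6.91 and 7.83 CPM, also without overlap (log2 fold change -0.61 ± 0.10 (SE), edgeR adjusted p = 0.000823, and -0.65 without replicate 2). The table has 2 rows with this symbol, of which the row on a chromosome with the highest mean count was used. How reads were divided between the rows is not known, so the level of BOP1 may be understated. RRS1, which helps to load the small ribosomal RNA of the large subunit, was at 33.7, 33.6 and 33.1 CPM and 19.8, 18.4 and 18.7 CPM in 5637 (log2 fold change -0.93 ± 0.08 (SE), edgeR adjusted p = 1.32e-07). Its OVCAR8 libraries, at 61.5, 62.6 and 55.1 CPM and 53.6, 51.6 and 53.8 CPM, were separate too, yet the change did not pass (-0.28 ± 0.10 (SE), edgeR adjusted p = 0.0572), while it passed without replicate 2 (-0.19 ± 0.07 (SE), edgeR adjusted p = 0.0324).

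NOP16 moved most of the class in OVCAR8. It was at 53.2, 73.3 and 49.6 CPM in controls and 31.9, 35 and 34.8 CPM with drug (log2 fold change -0.90 ± 0.15 (SE), edgeR adjusted p = 0.000765, and -0.65 without replicate 2, its highest control). In 5637 it went from 40.8, 37.1 and 39.5 CPM to 22.9, 23.2 and 23.8 CPM (-0.85 ± 0.07 (SE), edgeR adjusted p = 4.45e-08). GNL3, the nucleolar GTPase nucleostemin, was at 103, 103 and 101 CPM and 59.5, 59.2 and 62.9 CPM in 5637 (-0.87 ± 0.06 (SE), edgeR adjusted p = 7.91e-09). All treated libraries of both genes lay below their controls. NOP2, a methyltransferase of large-subunit RNA, PES1 and WDR12, the partners of BOP1, BRIX1 and RRP1B had log2 fold changes between -0.81 (BRIX1) and -0.66 (NOP2) in 5637. RRP1B did not pass in OVCAR8, where replicate 2 was the lowest control (-0.12, and -0.31 with a call once it was left out).

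RNA polymerase I and its factors had the fewest falls in proportion. Only 3 of 6 fell in parental 5637 (median -0.18) and 2 of 6 in parental OVCAR8 (median -0.04, with 5 lower, UBTF higher and a median of -0.20 without replicate 2). POLR1B, the second-largest subunit (ENSG00000125630.11, chr2:113299492-113334635), fell in 5637, from 53, 55.8 and 51.8 CPM to 39.4, 38.2 and 41.3 CPM without overlap (log2 fold change -0.54 ± 0.06 (SE), edgeR adjusted p = 3.2e-06). Its OVCAR8 controls were 97, 52.8 and 91.1 CPM and its treated libraries 86.6, 89.7 and 86.4 CPM. Here replicate 2 alone is low, and no change was called with it (0.04 ± 0.14 (SE), edgeR adjusted p = 0.847), while the gene was called lower without it (-0.15 ± 0.05 (SE), edgeR adjusted p = 0.0095). POLR1A, the largest subunit, was called lower in 5637 (-0.28 ± 0.06 (SE), edgeR adjusted p = 0.0007) and gave -0.01 in OVCAR8, or -0.26 with a call without replicate 2.

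The remaining members of the class ran in different ways. POLR1C, a subunit shared with RNA polymerase III, fell in both parental lines, with log2 fold changes of -0.48 ± 0.08 (SE) and -0.43 ± 0.13 (SE). Its OVCAR8 controls were 31.3, 38.9 and 28.7 CPM, with replicate 2 the highest. The treated libraries there, at 24.8, 28.7 and 25.7 CPM, overlap them, and this call was lost when some single library was left out. POLR1E, a subunit that stabilises elongating polymerase, was at 58.6, 57.6 and 53.9 CPM and 59.8, 57.3 and 57.3 CPM in 5637, which overlap (-0.07 ± 0.05 (SE), edgeR adjusted p = 0.301). It fell in OVCAR8, from 45.6, 44.2 and 44 CPM to 37.3, 38.9 and 38.8 CPM (-0.32 ± 0.07 (SE), edgeR adjusted p = 0.00448, and -0.27 without replicate 2). RRN3, the initiation factor that links growth signals to polymerase I, was at 33.3, 32.3 and 31.9 CPM and 32.6, 33 and 36.4 CPM in 5637 and passed in neither line with all libraries (-0.04 and -0.08). Without replicate 2 it was called lower in OVCAR8 (-0.17 ± 0.06 (SE), edgeR adjusted p = 0.0222). UBTF, the upstream binding factor of ribosomal DNA (ENSG00000108312.10, chr17:42282401-42298994), was at 243, 243 and 235 CPM in OVCAR8 controls and 282, 286 and 284 CPM with drug. Its treated libraries all exceed the controls, the change did not pass with replicate 2 (0.14 ± 0.07 (SE), edgeR adjusted p = 0.134) and passed without it (0.20 ± 0.04 (SE), edgeR adjusted p = 0.000152). RRN3 and POLR1C overlap other genes, PDXDC1 over 34296 bases and XPO5 over 7252 bases, and the use of strand in counting is not stated in the sources used here, so both values are uncertain. NHP2, NOP14, NOP16, GNL3, HEATR1, BRIX1, WDR12 and TSR1 also share from 1106 (NHP2) to 74850 (WDR12) bases with another gene.

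The 5 nucleolar proteins had the lowest class median in 5637. In parental 5637 all 5 fell (median -0.99), and in parental OVCAR8 4 of 5 did (median -0.43, with 5 of 5 and -0.40 without replicate 2). LYAR, a nucleolar zinc-finger protein of precursor processing (ENSG00000145220.9, chr4:4269428-4291896), was at 25.3, 27.6 and 25.7 CPM in 5637 parental controls and 12.5, 11.7 and 11.6 CPM with drug (log2 fold change -1.24 ± 0.08 (SE), edgeR adjusted p = 1.05e-08). In OVCAR8 it was at 61.6, 73.4 and 59.1 CPM and, with drug, at 32.3, 32.2 and 31.8 CPM (log2 fold change -1.12 ± 0.11 (SE), edgeR adjusted p = 1.63e-05, and -0.96 without replicate 2). The 3 treated libraries of each line sit close together, well below every control of that line. MYBBP1A, a regulator of polymerase I transcription (ENSG00000132382.10, chr17:4442192-4458926), was at 148, 138 and 146 CPM and 75.1, 74.8 and 71.3 CPM in 5637 (-1.07 ± 0.09 (SE), edgeR adjusted p = 1.02e-07). In OVCAR8, at 264, 163 and 223 CPM and 181, 184 and 172 CPM, control replicate 2 was below the treated libraries (-0.36 ± 0.11 (SE), edgeR adjusted p = 0.0239, and -0.49 without it).

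NCL (ENSG00000115053.11, chr2:232318242-232348352) was at 1325, 1269 and 1215 CPM in 5637 parental controls and 692, 679 and 697 CPM with drug (log2 fold change -0.99 ± 0.06 (SE), edgeR adjusted p = 2.63e-09). NPM1 was at 1749, 1679.8 and 1593 CPM and 1196, 1173 and 1209 CPM (-0.60 ± 0.08 (SE), edgeR adjusted p = 1.54e-05). Both abundant transcripts thus dropped below every control library. DDX21, a helicase that couples polymerase I to processing, fell in 5637 (-0.63 ± 0.08 (SE), edgeR adjusted p = 1.43e-05). In OVCAR8 it was at 322, 167 and 310.5 CPM and 249.6, 238 and 254 CPM, with replicate 2 far below all other libraries. No change was called with that library (-0.19 ± 0.16 (SE), edgeR adjusted p = 0.388), and a fall without it (-0.40 ± 0.04 (SE), edgeR adjusted p = 1.83e-08).

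**Figure D3:**
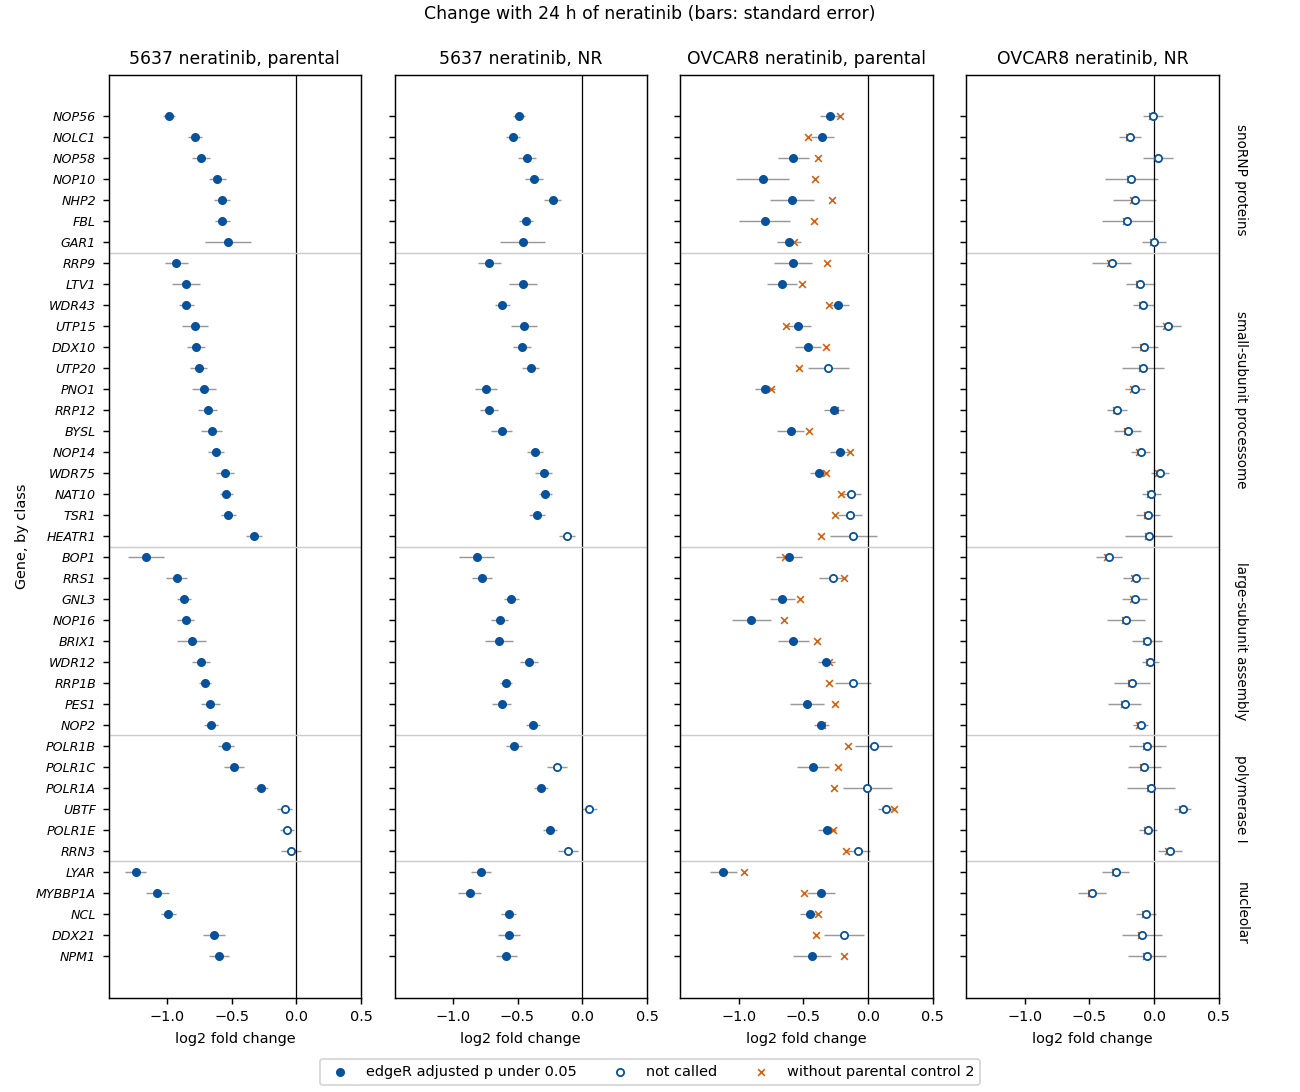
Log2 fold change with 24 h of neratinib (horizontal axis, bars are SE) for each of the 41 genes (vertical axis, by class) in 5637 and OVCAR8, parental and NR. Filled points passed the edgeR test, and orange crosses are estimates without OVCAR8 parental control replicate 2. Parental 5637 has 38 filled points, NR 5637 has 37, parental OVCAR8 has 30 and NR OVCAR8 has 0.

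In NR cells of 5637 neratinib still lowered most of the set, by less. Of the 41 genes, 37 were called lower and none higher, against 21.1% and 18.4% of all genes, with a median of -0.46 against 0.00 over all genes. Treated libraries lay below all controls in 33 genes, against 15.1% of all genes. HEATR1, POLR1C, RRN3 and UBTF did not pass. By class, 7 of 7 snoRNP, 13 of 14 processome, 9 of 9 large-subunit, 3 of 6 polymerase I and 5 of 5 nucleolar genes fell. In both parental and NR 5637, 36 genes fell, and the share of all genes that did so was not computed. With library size alone, the median of all genes moved to 0.12, calls went from 46.6% to 67.4% higher, and 33 of the 41 were lower and 1, UBTF, higher, with a median of -0.34. Of the 10 proliferation markers 7 fell (median -0.21), with a sum of 2854 to 3016 CPM in NR controls and 2569 to 2798 CPM with drug, and their part in this result was not tested.

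In OVCAR8 NR cells no member passed edgeR. That is 0 of 41, against 0.747% of all genes called lower and 0.642% higher, with a median of -0.09 against 0.00. At an unadjusted p under 0.05 there were 6 genes, DESeq2 called 4 (1 higher and 3 lower) and limma voom 0. In 22 genes the treated libraries lay below all controls and in 3 above, against 15.4% and 21.1% of all genes. Without parental control replicate 2, which is in neither group here but enters the shared estimate of spread, 17 genes were called lower and 1 higher (UBTF, 0.21), against 11.9% and 9.39% of all genes, with a median of -0.10. Of 10 proliferation markers edgeR called 0, with 0 at an unadjusted p under 0.05 (median 0.01, and 0 higher and 1 lower without that library). Their sum was 3132 to 3229 CPM in NR controls and 3227 to 3256 CPM with drug.

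The difference between the drug effects in NR and parental cells was tested directly. In 5637, 12 of 41 genes had a higher (less negative) effect in NR cells and none a lower one, against 7.39% and 6.48% of all genes, with a median difference of 0.22 on the log2 scale against -0.01. The estimate fell more in parental cells for 36 of the 41, and not for PNO1, POLR1A, POLR1E, RRN3 and RRP12. NOP56 had the highest difference. In NR cells it was at 339, 336 and 345 CPM without and 256, 273 and 265 CPM with drug, a smaller drop than that from 274, 271 and 273 CPM to 147, 150.2 and 148 CPM in parental cells (difference 0.50 ± 0.06 (SE), edgeR adjusted p = 7.95e-05). LYAR went from 33.2, 39.9 and 35.4 CPM to 20.8, 24.4 and 23.7 CPM in NR cells (difference 0.46 ± 0.11 (SE), edgeR adjusted p = 0.0139). NCL went from 1411, 1579 and 1414 CPM to 998, 1145 and 1102 CPM (difference 0.42 ± 0.08 (SE), edgeR adjusted p = 0.00266).

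By class, the 12 are 4 snoRNP genes (NOP56, NOP58, NHP2, NOLC1), 3 processome genes (DDX10, NAT10, UTP20), 3 large-subunit genes (GNL3, NOP2, WDR12) and 2 nucleolar genes (LYAR, NCL), with none of polymerase I. The count depended on single libraries: it was 4 without parental control replicate 1, 6 without parental control replicate 2, 6 without parental neratinib replicate 1 and 5 without NR control replicate 1. GNL3, LYAR, NCL and NOP56 stayed called with each library left out in turn, and the other 8 did not. Of the 10 proliferation markers, 8 differed in the same direction (median 0.57), and their part in this result was not tested.

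In OVCAR8 the same test called 8 genes higher and none lower, against 4.62% and 4.21% of all genes, with a median of 0.27 against -0.02. LYAR had the highest difference. Its NR libraries were at 68.5, 69.6 and 70.9 CPM without and 58.9, 56.6 and 56.9 CPM with drug, while the parental libraries went from 61.6, 73.4 and 59.1 CPM to 32.3, 32.2 and 31.8 CPM (difference 0.82 ± 0.15 (SE), edgeR adjusted p = 0.00615, or 0.66 once parental control replicate 2 was left out). UTP15, a processome protein that also acts on ribosomal DNA transcription, was at 21.5, 19.2 and 20.8 CPM and 23, 22.2 and 21.8 CPM in NR cells and at 23.1, 16.2 and 21.1 CPM and 14.8, 15.7 and 13.7 CPM in parental cells (difference 0.65 ± 0.14 (SE), edgeR adjusted p = 0.0136, and 0.73 without that library). PNO1 was at 27.2, 25.8 and 27.8 CPM and 25.6, 24.5 and 23.7 CPM in NR cells (difference 0.65 ± 0.11 (SE), edgeR adjusted p = 0.0047, and 0.59 without it), against the drop in parental cells given above.

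The other 5 genes called in OVCAR8 were GAR1, NOP58, GNL3, WDR75 and NCL. Without parental control replicate 2 the count was 28 higher and 0 lower, against 17% and 15.7% of all genes, with a median of 0.24. With library size alone, calls over all genes went from 52.4% to 40.5% higher and 8 of the 41 were called higher. Leaving out parental control replicate 1 gave 13 genes, and leaving out any other OVCAR8 library but parental control replicate 3 gave 3 to 5. LYAR, PNO1 and UTP15 stayed called with each library left out in turn. Proliferation markers moved alike: 6 of 10 were called higher (median 0.65) and 10 without replicate 2, and their part was not tested.

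**Figure D4:**
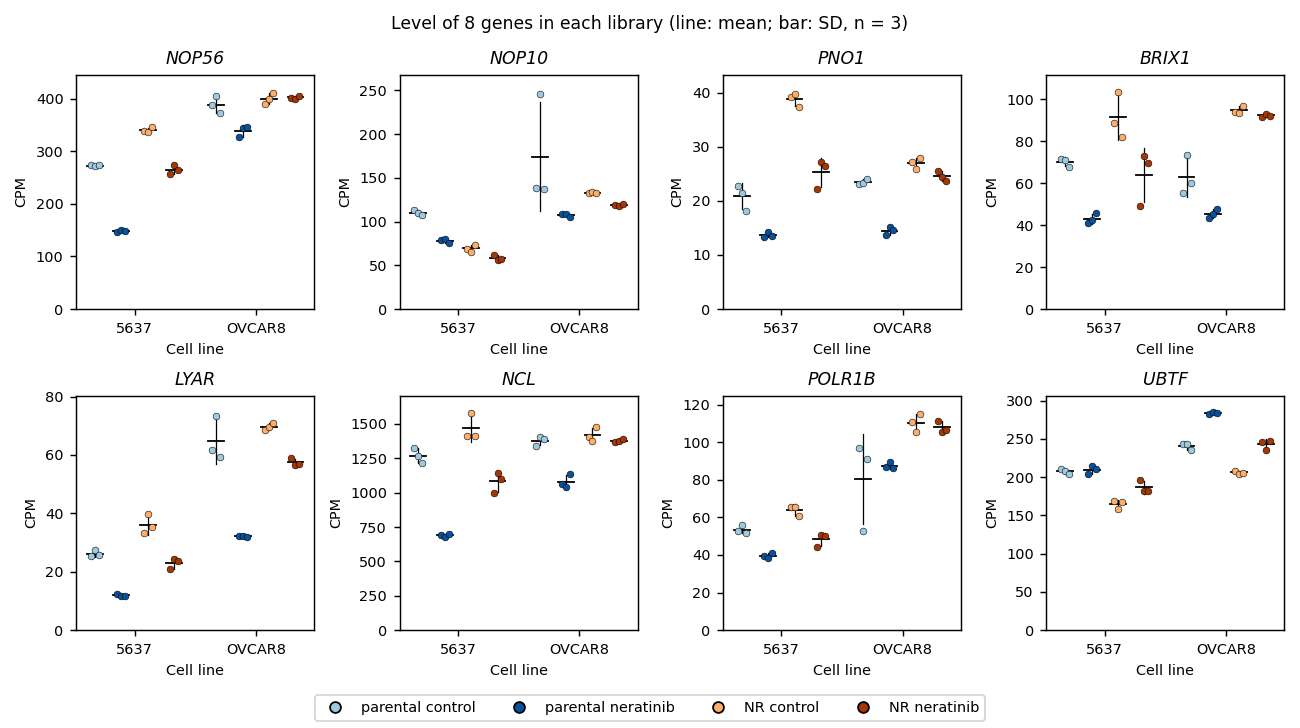
Level in CPM (vertical axis) of 8 genes in each library, by cell line and group, with the mean as a line and the SD as a bar (n = 3). LYAR and NCL drop with drug in parental cells of both lines, NOP10 and POLR1B show the separate position of 1 OVCAR8 parental control, and UBTF does not drop.

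Away from the drug, NR and parental cells of 5637 differed in both directions. In 5637 NR control libraries 16 of 41 genes were higher and 8 lower than in parental controls, against 28.4% and 28% of all genes, with a median of 0.11 against 0.00. The share of lower genes (19.5%) is below that of all genes, and the share of higher genes (39%) above it. PNO1 was the most raised, at 39.2, 39.7 and 37.4 CPM in NR controls against 22.8, 21.5 and 18.1 CPM in parental controls (log2 fold change 0.88 ± 0.09 (SE), edgeR adjusted p = 4.43e-07). NAT10, the RNA acetyltransferase, was at 191, 195 and 194 CPM against 129, 130.3 and 127 CPM (0.57 ± 0.05 (SE), edgeR adjusted p = 6.43e-08). RRP1B was at 239, 244 and 242 CPM against 165, 166 and 162 CPM (0.54 ± 0.05 (SE), edgeR adjusted p = 5.8e-08). NR and parental libraries of these 3 genes do not overlap. GAR1, RRS1, LYAR, DDX21, BRIX1, RRP9, WDR43, NOP56, RRP12, POLR1B, NCL, NOLC1 and GNL3 were higher as well, with log2 fold changes from 0.15 (GNL3) to 0.69 (GAR1). The calls of BRIX1, GNL3, NCL and NOLC1 were lost when some single library was left out.

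The 8 lower genes include core snoRNP proteins. NOP10 was at 69.1, 65.1 and 73.6 CPM in NR controls against 113, 109.8 and 108 CPM in parental controls (log2 fold change -0.68 ± 0.07 (SE), edgeR adjusted p = 3.45e-07). FBL was at 228, 226 and 251 CPM against 348, 343 and 332 CPM (-0.55 ± 0.06 (SE), edgeR adjusted p = 6.44e-07). PES1, of the PeBoW complex, was at 108, 101 and 116 CPM against 175, 162 and 156 CPM (-0.62 ± 0.07 (SE), edgeR adjusted p = 3.64e-06). All NR libraries of these genes lie below all parental ones. NOP2 (-0.35), UBTF (-0.35), POLR1C (-0.29), UTP20 (-0.22) and NHP2 (-0.20) were lower too. Box C/D and H/ACA proteins were thus divided, with NOP56, NOLC1 and GAR1 higher and FBL, NOP10 and NHP2 lower. The call of NHP2, like that of NOLC1, was lost when some single library was left out. Proliferation markers were divided as well, with 3 of 10 higher and 2 lower (median 0.01). Lineage markers moved with this comparison. Of 12 urothelial markers 9 were lower and 2 higher in NR 5637, with a sum of 2306 to 2483 CPM against 7617 to 7922 CPM in parental controls, and 9 were lower and 1 higher on drug. Their part was not tested.

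In OVCAR8 without drug, 6 genes were higher in NR cells and 1 lower, against 4.94% and 4.91% of all genes, with a median of 0.01 against -0.01. Without parental control replicate 2 there were 15 higher and 1 lower, against 11.4% each, with a median of 0.10. Leaving out NR control replicate 1, 2 or 3 gave 3, 3 and 2 genes in all. BRIX1, a large-subunit assembly factor (ENSG00000113460.8, chr5:34915481-34926101), was at 94.1, 93.5 and 97 CPM in NR controls against 55.3, 73.6 and 60 CPM in parental controls (log2 fold change 0.54 ± 0.12 (SE), edgeR adjusted p = 0.0138, and 0.72 without replicate 2). DDX21 was at 422, 403 and 429 CPM against 322, 167 and 310.5 CPM (0.62 ± 0.16 (SE), edgeR adjusted p = 0.026, and 0.41). NR libraries of both genes exceed every parental control. RRP12 (0.52), NOLC1 (0.51), MYBBP1A (0.40) and TSR1 (0.36) were the other higher genes. BRIX1, DDX21, NOLC1 and RRP12 were higher in NR cells of both lines, and the share of all genes higher in both was not computed. UBTF was lower in both, at 208, 205 and 205 CPM in OVCAR8 NR controls (log2 fold change -0.27 ± 0.07 (SE), edgeR adjusted p = 0.0236) and 169, 159 and 168 CPM in 5637 NR controls (-0.35 ± 0.06 (SE), edgeR adjusted p = 6.77e-05), in each case below every parental control. In OVCAR8 only NOLC1 and RRP12 stayed called with each library left out in turn, BRIX1, DDX21, MYBBP1A, TSR1 and UBTF did not, and with only the groups compared in the fit RRP12 alone passed. Of the 10 proliferation markers 0 were called by edgeR in OVCAR8 (median -0.10, with 3 at an unadjusted p under 0.05), and 1 higher and 3 lower without replicate 2. Müllerian markers summed to 290.3 to 331.1 CPM in OVCAR8 NR controls and 423.7 to 534.7 CPM in OVCAR8 parental controls. Of the 8 listed, 3 were tested and 2 of these were lower. In 5637 the same sum was 188.5 to 207.4 CPM in NR controls and 274.9 to 407.1 CPM in parental controls. The part of these markers was not tested.

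On neratinib, many of these transcripts were higher in NR than in parental cells of both lines. In 5637, 25 of 41 were higher and 4 lower, against 28.8% and 29.2% of all genes, with a median of 0.29 against 0.00. The processome had 11 of 14 higher and 0 lower, large-subunit assembly 6 of 9 and 1, snoRNP proteins 4 of 7 and 2, nucleolar proteins 3 of 5 and 0, and polymerase I 1 of 6 and 1. LYAR was at 20.8, 24.4 and 23.7 CPM in treated NR cells and 12.5, 11.7 and 11.6 CPM in treated parental cells (log2 fold change 0.91 ± 0.08 (SE), edgeR adjusted p = 1.65e-07). PNO1 was at 22.3, 27.2 and 26.4 CPM against 13.3, 14.2 and 13.5 CPM (0.85 ± 0.09 (SE), edgeR adjusted p = 9.82e-07). NAT10 was at 174, 176 and 169 CPM against 94.2, 96.6 and 95.1 CPM (0.83 ± 0.05 (SE), edgeR adjusted p = 1e-09). The libraries do not overlap for these 3 genes. PES1 (-0.58), NOP10 (-0.45), FBL (-0.42) and UBTF (-0.20) were lower, as they were without drug.

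In OVCAR8 on drug, 23 genes were higher in NR cells and 1, UBTF, lower, against 14.6% and 16.4% of all genes, with a median of 0.38 against -0.02. By class, 9 of 14 processome, 6 of 9 large-subunit, 4 of 7 snoRNP, 3 of 5 nucleolar and 1 of 6 polymerase I genes were higher. Parental control replicate 2 is in neither group here but enters the shared filter, scaling and estimate of spread. Without it, 37 were higher and 1 lower, against 26.8% and 28.7%, with a median of 0.37. NAT10, NOP14 and RRS1 were then not called. BRIX1 was at 91.8, 93.2 and 92.2 CPM in treated NR cells and 43.5, 45.2 and 47.6 CPM in treated parental cells (log2 fold change 1.06 ± 0.12 (SE), edgeR adjusted p = 5.23e-05). LYAR was at 58.9, 56.6 and 56.9 CPM against 32.3, 32.2 and 31.8 CPM (0.88 ± 0.10 (SE), edgeR adjusted p = 7.67e-05). DDX21 was at 396, 402 and 391 CPM against 249.6, 238 and 254 CPM (0.72 ± 0.16 (SE), edgeR adjusted p = 0.0046). In each case every NR library was above every parental one, as in 37 of the 41 genes, against 27.9% of all genes. UBTF was at 245, 236 and 248 CPM against 282, 286 and 284 CPM, the other way round (-0.19 ± 0.07 (SE), edgeR adjusted p = 0.049), and lost this call in all 6 comparisons with 1 library left out. In 19 genes NR exceeded parental cells on drug in both lines, or 22 without replicate 2, and the share of all genes that did so was not computed. Proliferation markers were higher too, 8 of 10 in 5637 (median 0.60, with 1 lower) and 8 of 10 in OVCAR8 (median 0.66), and their part was not tested.

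Between the lines, the drug effect in parental cells was tested as OVCAR8 minus 5637. For 14 genes it was higher, that is, the fall was smaller in OVCAR8, and for none lower, against 5.46% and 4.83% of 20250 genes, with a median of 0.23 against -0.02. Without OVCAR8 parental control replicate 2 there were 24 higher and 1 lower (POLR1E), against 9.69% and 8.9%, with a median of 0.31. Leaving out OVCAR8 parental neratinib replicate 2 gave 9. MYBBP1A differed by 0.70 ± 0.15 (SE), edgeR adjusted p = 0.00315, NOP56 by 0.67 ± 0.09 (SE), edgeR adjusted p = 1.93e-05 and RRS1 by 0.64 ± 0.13 (SE), edgeR adjusted p = 0.00212. Without replicate 2 these became 0.57, 0.76 and 0.73. LYAR did not pass (0.11 ± 0.14 (SE), edgeR adjusted p = 0.678). PNO1 did not pass either (-0.10 ± 0.12 (SE), edgeR adjusted p = 0.713). For both, the interval of 2 SE on each side reaches from below 0 to above it.

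The levels themselves also differed between the lines, though no more often than over all genes. In parental controls 20 genes were higher in OVCAR8 and 8 lower, against 36.8% and 35.1% of all genes, and 21 and 10 without replicate 2. DDX10 stood out at 139, 169 and 147 CPM in OVCAR8 against 39.4, 37.1 and 36.9 CPM in 5637 (log2 fold change 2.01 ± 0.09 (SE), edgeR adjusted p = 1.47e-15, and 1.87 without OVCAR8 replicate 2). LYAR was at 61.6, 73.4 and 59.1 CPM against 25.3, 27.6 and 25.7 CPM (1.31 ± 0.10 (SE), edgeR adjusted p = 1.36e-11, and 1.16). For both genes the libraries of the lines are far apart. UTP15 (-0.73), RRP1B (-0.66) and NAT10 (-0.47) were lower in OVCAR8.

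The summed level of all members shows the same course. In 5637 parental controls it was 6428 to 6843 CPM over the 3 libraries, and with neratinib 4415 to 4502 CPM. NR 5637 libraries held 6711 to 7233 CPM without and 4954 to 5538 CPM with drug. OVCAR8 parental libraries held 7589 to 8251 CPM without and 6302 to 6581 CPM with drug, and NR libraries 8059 to 8528 CPM without and 7876 to 7921 CPM with it. The sum is led by NPM1 and NCL. The polymerase I class alone moved little in sum, from 483.6 to 497.4 CPM in 5637 parental controls to 457 to 469.4 CPM with drug. In OVCAR8 it went from 472.4 to 596.6 CPM to 579.1 to 590.8 CPM, and the 472.4 CPM is parental control replicate 2. UBTF, which was not called lower in either parental line, is the largest part of this sum. POLR1A, POLR1B and POLR1C were called lower in parental 5637. The sums are in CPM without TMM scaling.

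Other genes of the same pathway, not among the 42, gave the background for these counts. Of 104 such genes in 5637, 89 fell and 1 rose with drug in parental cells (median -0.51) and 86 fell and 0 rose in NR cells (median -0.38). Split by role, 9 of 10 snoRNP genes, 31 of 37 processome genes, 40 of 43 large-subunit genes and 9 of 14 polymerase I genes fell in parental cells. TCOF1, treacle, which ties polymerase I to precursor modification, gave -1.14 ± 0.06 (SE), edgeR adjusted p = 4.68e-10, and EBNA1BP2, a large-subunit factor, -0.98 ± 0.06 (SE), edgeR adjusted p = 2.55e-09. In parental OVCAR8, 62 of 105 fell and 1 rose (median -0.38), and 79 fell and 6 rose without replicate 2 (median -0.31). In OVCAR8 NR cells 0 of 105 passed edgeR (14 at an unadjusted p under 0.05), and 31 were lower and 3 higher without replicate 2. The drug effect differed between NR and parental 5637 for 9 of 104, all higher in NR. That is near the 7.39% of all genes called higher there. In OVCAR8 it differed for 15 of 105, all higher in NR, against 4.62% of all genes. Without replicate 2, 55 were higher and 5 lower in OVCAR8, against 17% and 15.7% of all genes.

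RNA polymerase III genes and factors of its small ribosomal RNA had medians nearer 0. In parental 5637, 11 of 17 fell and 0 rose (median -0.24), and in parental OVCAR8 7 of 18 fell and 1 rose (median -0.11), or 9 and 1 without replicate 2. POLR3G, a polymerase III subunit of proliferating cells, had the lowest log2 fold changes of the list, -1.29 ± 0.15 (SE), edgeR adjusted p = 3.25e-06 in 5637 and -1.20 ± 0.11 (SE), edgeR adjusted p = 1.81e-05 in OVCAR8. POLR1C, shared by both polymerases, is counted among the 41 genes only.

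Ribosomal protein genes, whose products the assembly factors build in, did not move with them. The count table holds 45 of the large and 32 of the small subunit, of which 71 were tested in 5637 and 70 in OVCAR8. RPL10 was at 63.2 CPM in 5637 parental controls and at 0.0082 CPM in OVCAR8 parental controls. The reason was not tested, so values of single ribosomal protein genes are uncertain. In parental 5637 with drug, 29 of 71 rose and 2 fell (median 0.11). In NR 5637, 1 rose and 10 fell, and the median of -0.06 is smaller than the shift of 0.12 that library size alone gave to all genes. NR cells of 5637 held less of them than parental cells, both without drug (1 of 71 higher, 59 lower, median -0.43) and on drug (0 higher, 65 lower, median -0.63). RPL13A, for example, gave -1.14 ± 0.06 (SE), edgeR adjusted p = 3.29e-10 without drug and -1.57 ± 0.06 (SE), edgeR adjusted p = 9.16e-12 on drug. In parental OVCAR8 the direction depended on 1 library: 0 rose and 2 fell of 70 (median -0.13), but 62 rose and 2 fell without replicate 2 (median 0.27). NR against parental OVCAR8 without drug gave 0 calls by edgeR of 70 (median -0.31, with 2 at an unadjusted p under 0.05), but 23 higher and 0 lower without replicate 2 (median 0.10). On drug it gave 1 higher and 0 lower (median -0.13), or 8 higher and 46 lower without it (median -0.14). An E-box lay in 4 of 62 of their promoters (6.45%), against 24 of 92 (26.1%) for the other biogenesis genes. Among the 34 described genes, the 17 with an E-box had a median drug effect of -0.66 in parental 5637 and -0.58 in parental OVCAR8, and the 17 without one -0.57 and -0.38. The 5 polymerase I genes with a window, from the class with the fewest falls in proportion, are all among those without an E-box. The OVCAR8 medians include parental control replicate 2 and were not computed without it. These medians are descriptions, and the presence of the motif was not tested against the response.

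**Figure D5:**
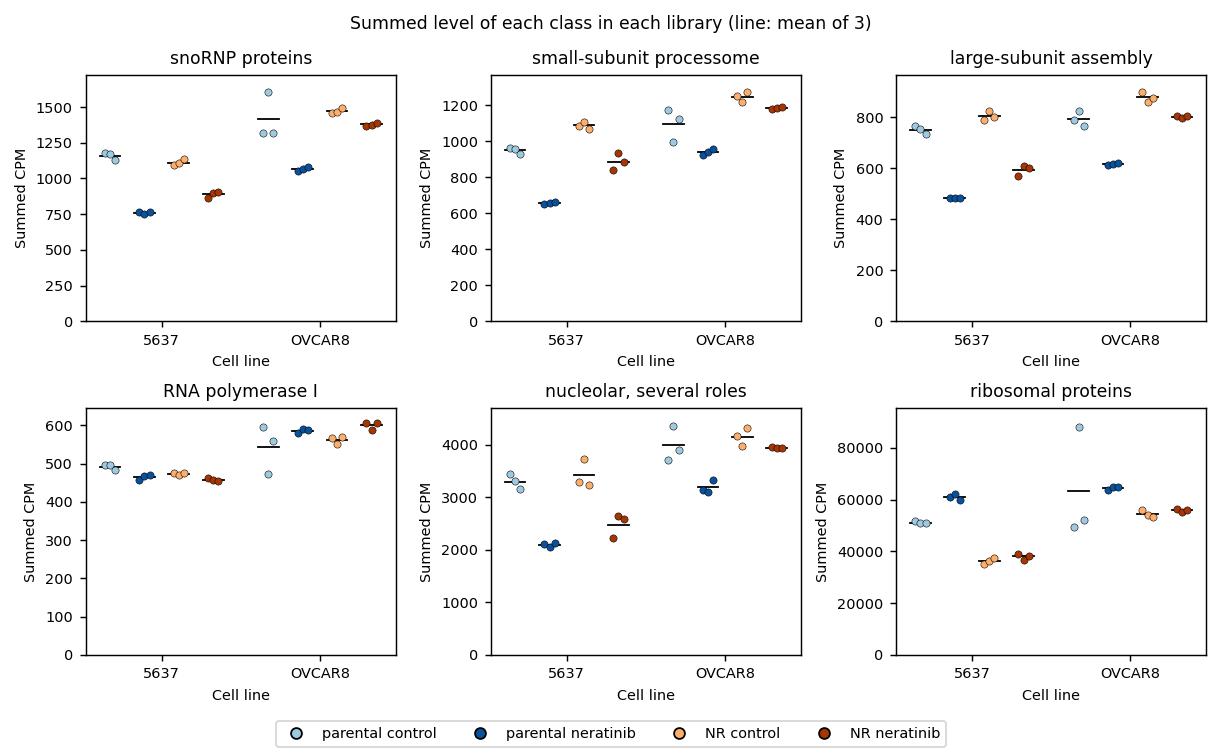
Summed CPM per library (vertical axis) of the 5 classes and of the ribosomal protein genes, by cell line and group, with the mean of 3 as a line. In 5637 the snoRNP, processome, large-subunit and nucleolar sums drop with drug, the polymerase I sum stays between 454.1 and 497.4 CPM, and ribosomal protein sums are lower in NR than in parental libraries.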

How the data were processed

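RNA of 24 libraries (TruSeq Stranded mRNA, paired-end, per the labels' protocols) was measured. The authors deposited raw counts per gene. Per the submitters' processing notes the tools were featureCounts 1.15.2, STAR 2.5.3a, DESeq2 1.18.1 and FastQC, with build hg19; the order of the steps and the use of strand are not given in the sources used here. From the counts, edgeR 4.0.16 (TMM, filterByExpr, quasi-likelihood F-test, Benjamini-Hochberg over all genes, threshold 0.05, in R 4.3.3) was fitted to the 12 libraries of each line, with 8 residual degrees of freedom, and to all 24 for differences between lines. CPM are counts scaled to the library total, without TMM. SE is the absolute log2 fold change over the square root of F. Alternatives were DESeq2 1.42.0, limma voom 3.58.1, other scalings and filters, other sets of libraries and a replicate block. The tests were checked on simulated data. The 42 genes and all lists were chosen with earlier results of these data known. Full values are given, per class, for the pair of genes with the greatest and the 1 with the least change with drug in each parental line, for those called against the majority, and for up to 3 with the greatest called difference between NR and parental cells or between lines.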

Additional observations from a re-analysis of the deposited data

Results flagged for a closer look

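The drug effect differed between NR and parental 5637 cells for 12 of the 41 genes by the edgeR interaction test, each with a smaller fall in NR cells. Over all genes 7.39% were called higher there. The log2 differences were 0.50 for NOP56, 0.46 for LYAR, 0.42 for NCL, 0.36 for UTP20, 0.34 for NHP2, 0.32 for WDR12, 0.32 for GNL3, 0.31 for NOP58, 0.31 for DDX10, 0.28 for NOP2, 0.26 for NAT10 and 0.25 for NOLC1. In OVCAR8 the same test passed for 8 genes, against 4.62% of all genes called higher. The differences were 0.82 for LYAR, 0.65 for UTP15, 0.65 for PNO1, 0.61 for GAR1, 0.61 for NOP58, 0.51 for GNL3, 0.42 for WDR75 and 0.39 for NCL. With each library left out in turn, only GNL3, LYAR, NCL and NOP56 stayed called in 5637. In OVCAR8 only LYAR, PNO1 and UTP15 did. Without OVCAR8 parental control replicate 2, 28 genes were called higher in OVCAR8, against 17% of all genes.

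The drug effect in parental cells differed between the lines for 14 genes, each with a smaller fall in OVCAR8. Over all genes 5.46% were called higher. With each library left out in turn 9 of the 14 stayed called, while NOP14, NOP2, POLR1B, RRP12 and TSR1 did not. The log2 differences were 0.70 for MYBBP1A, 0.67 for NOP56, 0.64 for RRS1, 0.61 for WDR43, 0.58 for RRP1B, 0.57 for POLR1B, 0.53 for NCL, 0.42 for NOLC1, 0.41 for RRP12, 0.40 for WDR12, 0.40 for NAT10, 0.39 for NOP14, 0.37 for TSR1 and 0.29 for NOP2.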

How the results depend on the processing

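No called gene of the 41 changed direction under any alternative run. Of 251 calls over 12 comparisons, DESeq2 lost 0, limma voom 2, DESeq2 size factors 2, library size alone 16, no filter on low counts 23 and a filter of 1 CPM in 3 libraries 1. Fitting only the groups compared lost 31 and kept 186, 1 fit of all 24 libraries lost 20 and kept 189, and leaving out 1 library lost 189 and kept 1545. Both alternatives without OVCAR8 parental control replicate 2 for all comparisons were chosen after seeing the data.

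Scaling by library size alone gave medians of -0.58 and -0.34 for the drug in parental and NR 5637 and 0.35 for NR against parental OVCAR8 on drug, or 0.35 also without OVCAR8 parental control replicate 2. With all 24 libraries in 1 fit, the NR against parental difference in drug effect in 5637 held 4 genes and the drug in NR OVCAR8 2. Fitting only the groups compared called 15 genes for the drug in parental OVCAR8, 17 in NR OVCAR8, 1 for NR against parental OVCAR8 without drug and 38 on drug. The drug in NR OVCAR8 gave 1 gene with size factors, 1 without a filter, 1 with the stricter filter and 4 with DESeq2. DESeq2 called 14 for the difference in drug effect between NR and parental OVCAR8, and no filter left 9 between the lines. Library size alone without OVCAR8 parental control replicate 2 gave 15, 16, 37, 28 and 23 genes for the drug in NR OVCAR8, NR against parental without and on drug, its difference in drug effect, and the lines. The cause was not tested.

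With 1 library left out, counts ran from 4 to 18 for the difference in drug effect in 5637 (median 0.19 to 0.27), 0 to 18 for the drug in NR OVCAR8, 2 to 16 and 21 to 38 for NR against parental OVCAR8 without and on drug, 3 to 28 for its difference in drug effect and 9 to 25 between lines. The median for the drug in NR 5637 ran from -0.52 to -0.46.

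Same-numbered replicates showed no clear common deviation: 3 of 18 correlations in 5637 and 4 of 18 in OVCAR8 were over 0.1. For pairs with different numbers it was 10 of 36 in 5637 and 6 of 36 in OVCAR8. The highest of these were 0.518 and 0.202, so some libraries of different groups did deviate together. A replicate block lost 17 calls and gave 5 genes in place of 8 for the difference in drug effect in OVCAR8.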
